A study of Danio rerio with 10 samples.

Results

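The Notch receptors notch1a and notch2 and the Hairy-related repressors her6 and her9 were followed on 10 arrays, each hybridised with RNA from 1 whole adult male zebrafish. The genes were taken by the symbol that the array annotation gives to a probe, and every probe with 1 of these symbols was used. They were 4 of 5356 genes with a symbol of their own on the array and 7 of 16416 probes, with 3 for notch1a, 2 for notch2 and 1 each for her6 and her9, and all 7 had a value on every array. The 3 E2+ICI fish had spent 96 hours in 10 nM 17β-estradiol (E2, the main natural estrogen) with 1 µM ICI 182,780 (ICI, an anti-estrogen that blocks estrogen receptors). The 3 E2 fish had spent the same time in 10 nM E2 alone, and the 4 control fish in the ethanol vehicle. All 3 groups shared the vehicle at 0.01% ethanol. The dose of E2 is that of the treatment protocol, whereas the titles of the samples give the number with the unit mM.

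Every value below is a log2 ratio of fish RNA (Cy3) to 1 common reference RNA (Cy5), a mixture from the livers of male and female fish, so that 1 unit is a 2-fold difference. Array medians ran from -0.675 to 0.109 before Lowess normalization and from -0.017 to 0.024 after it. A value of 0 is thus near the middle of its array and need not be the level of the reference. The ratio was read as fish over reference, and the yolk protein gene vtg3, a known estrogen-induced gene, ran from -0.39 to 0.0082 in E2+ICI, from 0.77 to 2.01 in E2 and from -6.96 to -5.64 in control fish. The levels of different probes cannot be ranked against each other, because each is relative to its own level in the reference. The RNA came from the whole body, so that fewer cells of a type and less RNA per cell cannot be told apart. Across all probes, 196 to 912 values were missing on an array. The standard deviation (SD) of the log2 ratios was 0.373 to 0.561 on E2+ICI arrays, 0.461 to 0.514 on E2 arrays and 0.796 to 1.07 on control arrays. Control replicate 4 had the widest spread of all arrays. Lowess normalization changed E2 replicate 1 most, with a Spearman correlation of 0.77 between its values before and after, against 0.90 to 0.98 on the other arrays. That array also had the lowest median before Lowess, -0.675. By annotation symbol, the arrays carry 30 probes for the listed markers of neural, endothelial, oocyte, liver and muscle cells. All 5 oocyte probes rose in both treated groups. The mean of the oocyte probes ran from -1.48 to -0.21 on E2+ICI arrays, from 0.14 to 0.50 on E2 arrays and from -5.30 to -4.42 on control arrays. The mean of the 4 liver probes ran from -0.72 to -0.17 on E2+ICI arrays, from -1.95 to -1.73 on E2 arrays and from -1.37 to -0.11 on control arrays. Of the 4 liver probes 3 fell in E2, while apoa1a, an apolipoprotein gene, stood at 0.59 there (adjusted p = 0.0587) and rose by 1.60 in E2+ICI (adjusted p = 0.000787). Both fabp10a, a liver fatty acid-binding protein gene, and apoa1a were higher in E2+ICI than in E2 fish, by 2.25 and 1.01 (adjusted p = 0.0280 and 0.0366). The mean of the 7 muscle probes ran from -0.83 to -0.12 on E2+ICI arrays, from -1.10 to -0.93 on E2 arrays and from -1.87 to -0.60 on control arrays. Of them, the parvalbumin gene pvalb1 and the myosin light chain gene mylz3 rose in E2+ICI, by 2.16 and 1.35 (adjusted p = 0.0230 and 0.0479). The creatine kinase gene ckma rose by 0.44 in E2 (adjusted p = 0.0174), and the troponin gene tnnt3b was 1.01 higher in E2+ICI than in E2 fish (adjusted p = 0.0350). Of 10 neural probes tested, none passed in limma. For E2 against control, 1 of them had an unadjusted p under 0.05, as had 7305 of all 16208 probes tested. Of 3 endothelial probes only kdrl, a vascular receptor gene, passed, lower in both treated groups (-0.76 in E2+ICI and -0.74 in E2). The endothelial adhesion gene pecam1a is on the array but was not on the marker list. None of the 8 testis markers listed is the symbol of a probe, in an annotation that gives no symbol to 10253 of the 16416 probes. The part of any of these cell types in the values of Notch genes was not tested.

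Notch receptors are membrane proteins that are cut when a Delta or Jagged ligand on a neighbouring cell binds them. The freed intracellular part enters the nucleus, joins the DNA-binding protein Rbpj and switches on target genes, of which the best known are basic helix-loop-helix repressors of the Hairy and Enhancer of split family. These repressors recruit Groucho corepressors and keep cells from differentiating in the nervous system, the vessels, the gut and other tissues. The gene notch1a encodes a receptor of the Notch1 type and notch2 one of the Notch2 type. The product of her6 is the zebrafish counterpart of mammalian Hes1, and that of her9 is a closely related repressor.

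Between E2 and control fish, her9, her6 and 1 notch2 probe fell and 1 notch1a probe rose. In all, 4 of the 7 probes passed at an adjusted p under 0.05 (limma with Benjamini-Hochberg adjustment over 16208 probes), 1 higher and 3 lower. Of all probes tested, 35.6% passed, 19.2% higher and 16.5% lower. Over all probes, pairs of an E2 and a control array had a Pearson r from -0.08 to 0.14. It was 0.28 to 0.69 between E2+ICI and control arrays, and 0.65 to 0.90 within a group. The values of 5 of the 7 probes did not overlap between E2 and control fish, 2 higher and 3 lower, which held for 43.1% of all probes tested, 22% higher and 21.0% lower. The median log2 fold change was -0.33 over the 7 probes and -0.07 over all probes tested. The other 3 probes did not pass, so that the genes with several probes are described probe by probe.

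**Figure D1:**
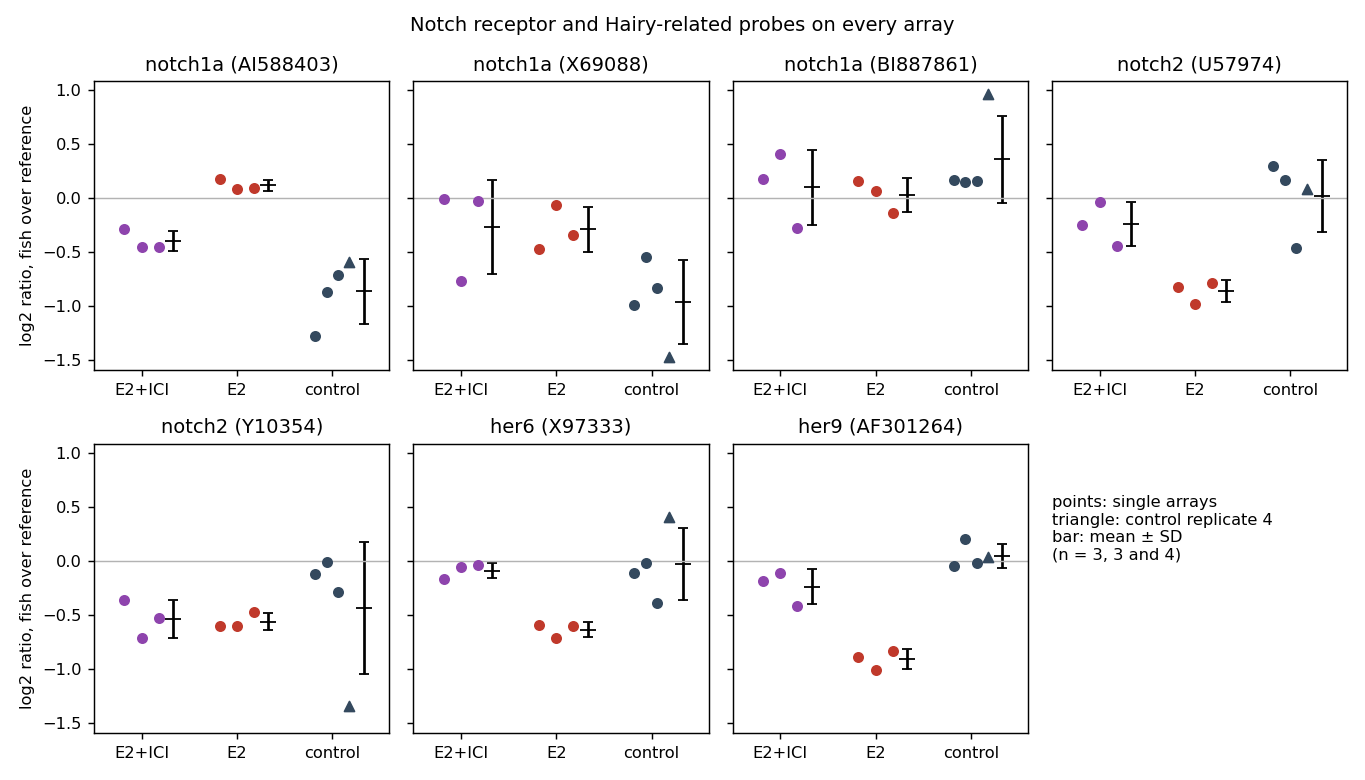
Log2 ratio of fish to reference RNA (vertical axes) on every array for the 7 probes, with E2+ICI, E2 and control arrays from left to right, points for single arrays, a triangle for control replicate 4 and bars for mean ± SD. The E2 arrays of her9 lie between -1.01 and -0.83, below all other arrays, and control replicate 4 stands alone at -1.34 for notch2 (Y10354) and at 0.96 for notch1a (BI887861).

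The notch1a probe AI588403 had the values -0.29, -0.45 and -0.46 on the 3 E2+ICI arrays, 0.17, 0.081 and 0.096 on the 3 E2 arrays and -1.28, -0.87, -0.71 and -0.59 on the 4 control arrays. The 3 groups did not overlap, with E2 fish highest, E2+ICI fish between and control fish lowest. The means were -0.40 ± 0.096 in E2+ICI, 0.12 ± 0.048 in E2 and -0.86 ± 0.30 in control fish (SD, n = 3, 3 and 4). E2 fish were 1.97-fold above control fish, with a log2 fold change of 0.98 (SE 0.17, limma adjusted p = 0.0011). E2+ICI fish stood 0.46 above control fish (SE 0.17, adjusted p = 0.107) and differed by -0.51 from E2 fish (SE 0.18, adjusted p = 0.115), and neither difference passed, although both 95% intervals left out 0 (0.09 to 0.84 and -0.91 to -0.11). The difference from control fish was 0.0593 with quantile normalization (adjusted p = 0.874) and 0.13 with arrays scaled to equal spread (adjusted p = 0.709). Without control replicate 4, both differences passed (0.55, adjusted p = 0.0375, and -0.51, adjusted p = 0.0488). The difference from E2 fish was -0.51 with and without that array, and only its p-value changed.

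The notch1a probe X69088 read -0.0052, -0.77 and -0.027 in E2+ICI fish, -0.47, -0.062 and -0.34 in E2 fish and -0.99, -0.54, -0.83 and -1.47 in control fish. All E2 arrays lay above all control arrays, whereas E2+ICI replicate 2 lay within the control values. The log2 fold change was 0.67 for E2 against control (SE 0.25, adjusted p = 0.0560) and 0.69 for E2+ICI against control (SE 0.25, adjusted p = 0.0993). Between E2+ICI and E2 fish it was 0.02, with a 95% interval from -0.56 to 0.61. None of the 3 passed with all arrays at equal weight. With quantile normalization the differences from control fish were 0.29 in E2 and 0.41 in E2+ICI (adjusted p = 0.293 and 0.266), and with arrays scaled to equal spread 0.31 and 0.39 (adjusted p = 0.243 and 0.261). The difference between E2 and control fish passed without control replicate 2 (0.81, adjusted p = 0.0313) and without E2+ICI replicate 2 (0.67, adjusted p = 0.0336). That between E2+ICI and control fish passed without E2+ICI replicate 2 (0.94, adjusted p = 0.0319) and with array weights (0.65, adjusted p = 0.0219).

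The notch1a probe BI887861 had 0.18, 0.40 and -0.28 in E2+ICI fish, 0.16, 0.065 and -0.14 in E2 fish and 0.17, 0.15, 0.16 and 0.96 in control fish. The groups overlapped, and 3 of the 4 control arrays lay between 0.147 and 0.167 while control replicate 4 stood apart. The log2 fold change was -0.33 for E2 against control, with a 95% interval from -0.84 to 0.18 (limma adjusted p = 0.30). E2+ICI fish stood -0.26 from control fish (adjusted p = 0.526) and 0.07 from E2 fish (adjusted p = 0.895). Without control replicate 4, the differences from control fish were -0.13 in E2 and -0.058 in E2+ICI (adjusted p = 0.587 and 0.873).

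The notch2 probe U57974 had -0.25, -0.033 and -0.44 in E2+ICI fish, -0.82, -0.98 and -0.79 in E2 fish and 0.29, 0.17, -0.46 and 0.086 in control fish. The E2 arrays were lower than every other array, and the E2+ICI and control values overlapped. The means were -0.24 ± 0.20 in E2+ICI, -0.86 ± 0.10 in E2 and 0.021 ± 0.33 in control fish (SD, n = 3, 3 and 4). E2 fish were 1.85-fold below control fish, with a log2 fold change of -0.88 (SE 0.19, adjusted p = 0.00405). E2+ICI fish were at 0.62 above E2 fish (SE 0.20, adjusted p = 0.0948) and at -0.26 from control fish (95% interval from -0.68 to 0.16, adjusted p = 0.425).

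The notch2 probe Y10354 had -0.36, -0.72 and -0.53 in E2+ICI fish, -0.61, -0.61 and -0.48 in E2 fish and -0.12, -0.0091, -0.29 and -1.34 in control fish. Every treated fish was below 3 of the control fish and above control replicate 4. The log2 fold change was -0.12 for E2 against control, with a 95% interval from -0.73 to 0.48 (limma adjusted p = 0.761). Without control replicate 4 it was -0.43 and passed (adjusted p = 0.0328), and without control replicate 2 it was 0.0195 (adjusted p = 0.968), so that single control arrays decided both the call and the sign. Its size also moved with the processing, without passing. It was -0.49 with quantile normalization and -0.44 with arrays scaled to equal spread (adjusted p = 0.0574 and 0.0662). With array weights it was -0.39 (adjusted p = 0.0614). E2+ICI fish differed by -0.10 from control fish and by 0.03 from E2 fish (adjusted p = 0.866 and 0.970).

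A further probe, the expressed sequence BE201310, has no symbol in the array annotation and is not counted among the 7. The homolog table of the study pairs its accession with human NOTCH2. Its values were 0.34, 0.19 and -0.084 in E2+ICI fish, -0.47, -0.31 and -0.086 in E2 fish and 0.81, 1.15, 1.21 and 1.41 in control fish. Both treated groups lay below all control arrays, with log2 fold changes of -1.44 for E2 (SE 0.18, adjusted p = 0.000115) and -0.999 for E2+ICI (SE 0.18, adjusted p = 0.00398). E2+ICI fish were 0.44 above E2 fish (adjusted p = 0.191). The study chose this probe, and that of her9, on these arrays, so that their directions are not independent evidence.

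The her6 probe X97333 had -0.17, -0.056 and -0.043 in E2+ICI fish, -0.60, -0.72 and -0.60 in E2 fish and -0.11, -0.020, -0.39 and 0.41 in control fish. All E2 arrays lay below all others, and the 3 E2+ICI arrays lay inside the range of the control arrays. The means were -0.091 ± 0.071 in E2+ICI, -0.64 ± 0.068 in E2 and -0.029 ± 0.33 in control fish (SD, n = 3, 3 and 4). E2 fish were 1.53-fold below control fish, with a log2 fold change of -0.61 (SE 0.18, adjusted p = 0.0204). The change did not pass when E2 replicate 1, 2 or 3 was left out (adjusted p = 0.0527, 0.0686 and 0.0546, with log2 fold changes of -0.63, -0.57 and -0.63). E2+ICI fish were at 0.55 above E2 fish, which did not pass (SE 0.19, adjusted p = 0.111). The difference passed in 6 of 20 alternatives, among them that without control replicate 4 (adjusted p = 0.0253). Control arrays do not enter this difference, but they enter its SE, because the 3 groups share 1 estimate of the spread. The difference between E2+ICI and control fish was -0.06, with a 95% interval from -0.45 to 0.33 (adjusted p = 0.868).

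The her9 probe AF301264 had -0.19, -0.11 and -0.42 in E2+ICI fish, -0.89, -1.01 and -0.83 in E2 fish and -0.045, 0.20, -0.025 and 0.033 in control fish. The 3 groups did not overlap, with control fish highest, E2+ICI fish between and E2 fish lowest. The means were -0.24 ± 0.16 in E2+ICI, -0.91 ± 0.093 in E2 and 0.041 ± 0.11 in control fish (SD, n = 3, 3 and 4). E2 fish were 1.94-fold below control fish, with a log2 fold change of -0.95 (SE 0.14, adjusted p = 0.000346). Of all probes tested, 5.9% had a lower fold change between E2 and control fish. E2+ICI fish were 1.59-fold above E2 fish, with a log2 fold change of 0.67 (SE 0.15, adjusted p = 0.0291). This second difference did not pass without any 1 of the 3 E2 arrays, nor without E2+ICI replicate 1 or 2 (adjusted p from 0.0851 to 0.109, log2 fold changes from 0.61 to 0.71), nor before Lowess normalization (0.74, adjusted p = 0.134). Before Lowess with array medians set to 0 it did not pass either (0.58, adjusted p = 0.135). E2+ICI fish stood -0.28 from control fish, which did not pass (SE 0.14, adjusted p = 0.229).

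**Figure D2:**
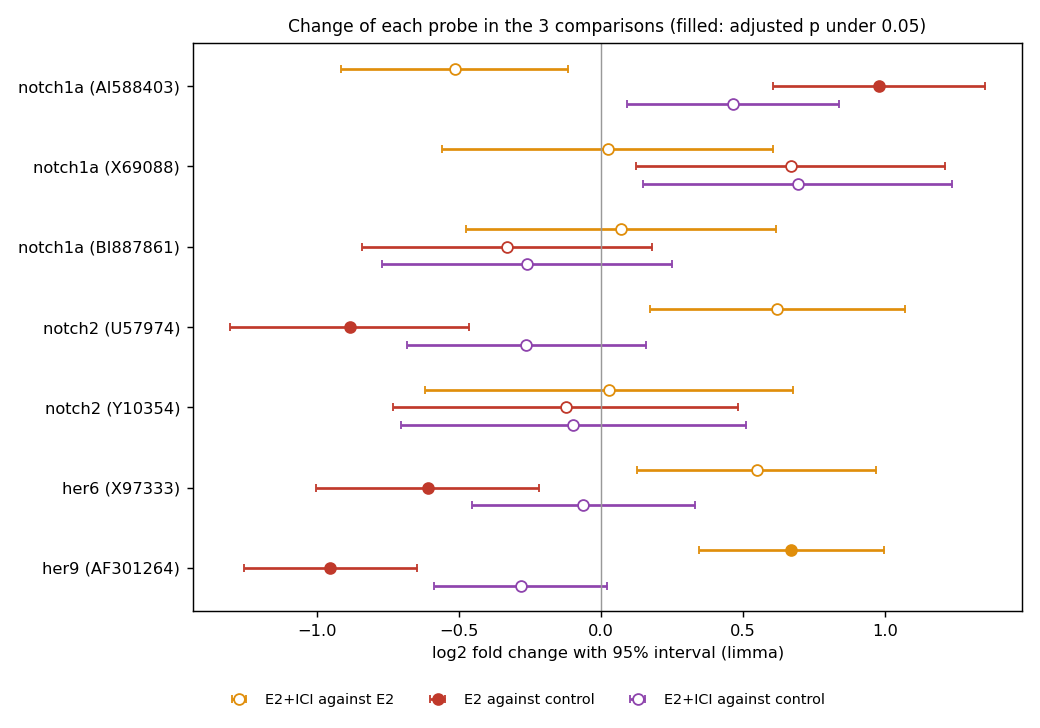
Log2 fold change (horizontal axis) with 95% interval for the 7 probes in E2+ICI against E2, E2 against control and E2+ICI against control, with filled circles where the adjusted p was under 0.05. Filled circles for E2 against control stand at -0.95 for her9, -0.88 for notch2 (U57974), -0.61 for her6 and 0.98 for notch1a (AI588403), and the only other filled circle is E2+ICI against E2 for her9 at 0.67.

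Between E2+ICI and control fish, 0 of the 7 passed in limma, while 12% of all probes tested passed, 8.92% higher and 3.04% lower. At an unadjusted p under 0.05 there were 2 of the 7, against 4245 of the 16208 probes tested. When the arrays were weighted by their quality, 2 of the 7 and 3631 of all probes passed. The 2 were notch1a (X69088) at 0.65 and notch1a (AI588403) at 0.53 (adjusted p = 0.0219 and 0.0140). The E2+ICI and control values did not overlap for 2 of the 7, her9 lower and notch1a (AI588403) higher, against 25.0% of all probes tested, 15.5% higher and 9.53% lower. Between E2+ICI and E2 fish, 1 of the 7 passed, her9 at 0.67, while 5.42% of all probes tested passed, 2.88% higher and 2.54% lower. At an unadjusted p under 0.05 there were 4 of the 7, against 3919 of the 16208 probes tested. With quantile normalization, arrays scaled to equal spread, array weights or only the 2 groups compared, 4 of the 7 passed, since her6, notch2 (U57974) and notch1a (AI588403) then passed as well, and before Lowess 0 passed. The count of all probes moved too, from 879 to 3930, 3833, 3846 and 3314 in that order, and to 163 before Lowess. Control arrays do not enter the fold changes between E2+ICI and E2 fish. They enter the p-values of the main fit through the spread that the 3 groups share. The values did not overlap for 4 of the 7, with her9, her6 and notch2 (U57974) higher in E2+ICI fish and notch1a (AI588403) lower, against 42.5% of all probes tested, 22.7% higher and 19.9% lower. Without control replicate 4, the array with the widest spread, 5 of the 7 passed between E2 and control fish, 1 between E2+ICI and control fish and 3 between E2+ICI and E2 fish. Of all probes, 7135, 2444 and 2696 then passed in these comparisons, against 5773, 1939 and 879 with all arrays. The first 2 comparisons share the control arrays, and the last shares the E2 arrays with the first and the E2+ICI arrays with the second. A fold change in the last is that of the second less that of the first. The 3 sets of fold changes are therefore not independent of each other.

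The probes of the same gene were then set against each other on every array. For the notch1a pair AI588403 and BI887861, the difference of their log2 ratios was -0.46, -0.85 and -0.18 in E2+ICI fish, 0.012, 0.017 and 0.24 in E2 fish and -1.44, -1.02, -0.87 and -1.55 in control fish. These differences did not overlap between any 2 groups. Their mean was 1.31 higher in E2 than in control fish, which is by how much the 2 probes disagreed about the same comparison, and 1.20 higher without control replicate 4. The exact two-sided permutation p was 0.0571, which is the smallest that 3 against 4 arrays allow, and 0.171 after Benjamini-Hochberg adjustment over the 12 tests of this kind. The pair X69088 and BI887861 differed likewise by 1.0 between E2 and control fish (exact permutation p = 0.0571, adjusted 0.171), and by 0.63 without control replicate 4. X69088 and AI588403, which both read higher in every E2 than in every control fish, differed by -0.31 (exact permutation p = 0.40, adjusted 0.533) and by -0.57 without that array. For notch2, the difference Y10354 minus U57974 was -0.12, -0.68 and -0.089 in E2+ICI fish, 0.22, 0.37 and 0.31 in E2 fish and -0.41, -0.18, 0.17 and -1.43 in control fish. It was highest in the 3 E2 fish, with a mean 0.76 above that of control fish (exact permutation p = 0.0571, adjusted 0.171) and with E2+ICI fish -0.59 from E2 fish (exact permutation p = 0.10, adjusted 0.20). Without control replicate 4 the E2 mean was 0.44 above that of control fish. For 3 against 3 arrays, 0.1 is the smallest p that can be had, which the 4 differences between E2 and control fish all reached without that array. None of the 12 tests passed after adjustment, and with so few arrays none could fall under 0.05 even before it.

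**Figure D3:**
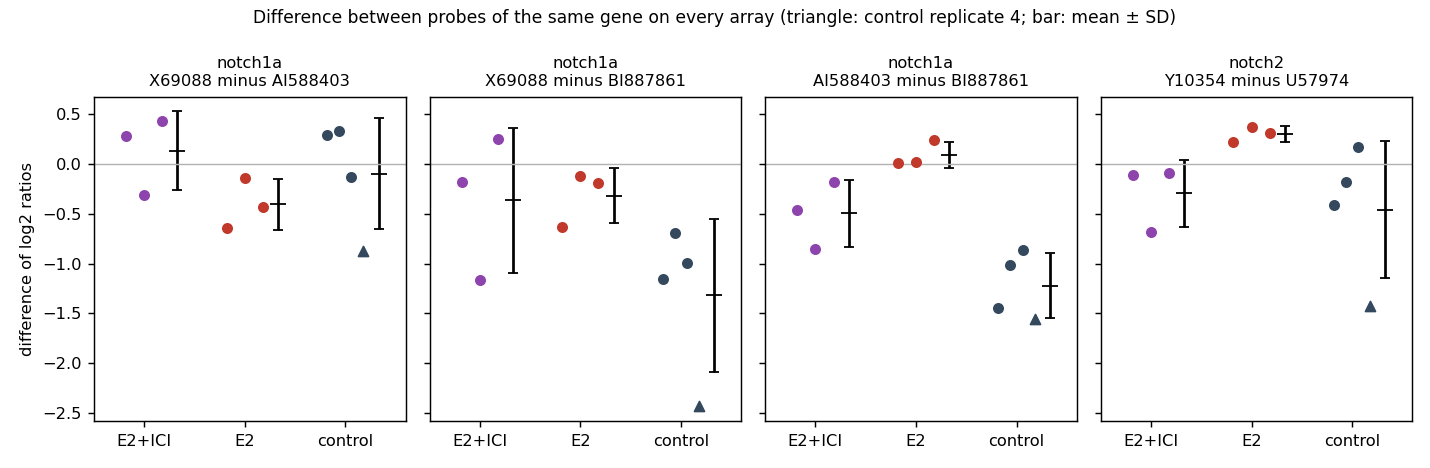
Difference of the log2 ratios of 2 probes of the same gene (vertical axis) on every array, for the 3 notch1a pairs and the notch2 pair, with E2+ICI, E2 and control arrays from left to right, a triangle for control replicate 4 and bars for mean ± SD. AI588403 minus BI887861 lies between 0.012 and 0.24 on E2 arrays and between -1.55 and -0.87 on control arrays.

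Over the 10 arrays, X69088 and AI588403 of notch1a had a Pearson r of 0.54, X69088 and BI887861 one of -0.79 and AI588403 and BI887861 one of -0.24. Without control replicate 4 these were 0.63, -0.56 and -0.24 in that order. The r of the 2 notch2 probes was 0.11 with all arrays and 0.64 without control replicate 4. Across genes, notch2 (U57974) had an r of 0.91 with her9 and of 0.84 with her6, and her9 and her6 had an r of 0.80. The notch1a probe AI588403 ran the other way, with an r of -0.88 with notch2 (U57974), -0.86 with her9 and -0.64 with her6. These are descriptions over arrays of 3 groups, and they contain the differences between the groups.

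The probes with 1 gene symbol whose values were most like those of each member were sought among 5285 probes with values on all 10 arrays. For her9 they were s100u (r = 0.99), an S100 calcium-binding protein gene, ppl (0.98), which encodes the junctional protein periplakin, and cldn3c (0.98), a claudin gene of tight junctions. For her6 they were xpo1b, a nuclear exportin gene, klf3, a Krüppel-like repressor gene, and fam120c, each with an r of 0.95. For notch2 (U57974) they were rcan2, a calcineurin regulator gene (0.98), rapgef6, a guanine nucleotide exchange factor gene (0.97), and brd2a, a bromodomain gene (0.96). For Y10354 they were cast, which encodes the calpain inhibitor calpastatin, si:ch211-132g1.3 and susd6, with r from 0.95 to 0.97. For notch1a (AI588403) they were maea, a ubiquitin ligase subunit gene, irs1, an insulin receptor substrate gene, and tp53rk, a kinase gene (each 0.98). For X69088 they were ctnnb2, a beta-catenin gene (0.96), tut4, a terminal uridylyltransferase gene (0.95), and nup50, a nucleoporin gene (0.94). For BI887861 they were tmem47, anos1b and the endothelial adhesion gene pecam1a, with r from 0.93 to 0.94. No gene stood among the first 3 for more than 1 of the 7 probes. Only 3 of 5285 probes were taken for each, so that this does not show whether probes of 1 gene agree. The search gives an order of likeness and no test.

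Of 102 other genes of the Notch pathway, 42 were found on the array by symbol, with 44 probes, and all 44 were tested. Probes without a symbol were not searched for the rest. Between E2 and control fish, 18 passed, 9 higher and 9 lower, or 40.9% against 35.6% of all probes tested. Their median log2 fold change was -0.07, as over all probes. For E2+ICI and control fish it was 6, 5 higher and 1 lower, or 13.6% against 12%. For E2+ICI and E2 fish it was 1, or 2.27% against 5.42%. Without control replicate 4 these 3 counts were 20, 5 and 9, and of all probes tested 2696 then passed in the last comparison, against 879 with it.

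**Figure D4:**
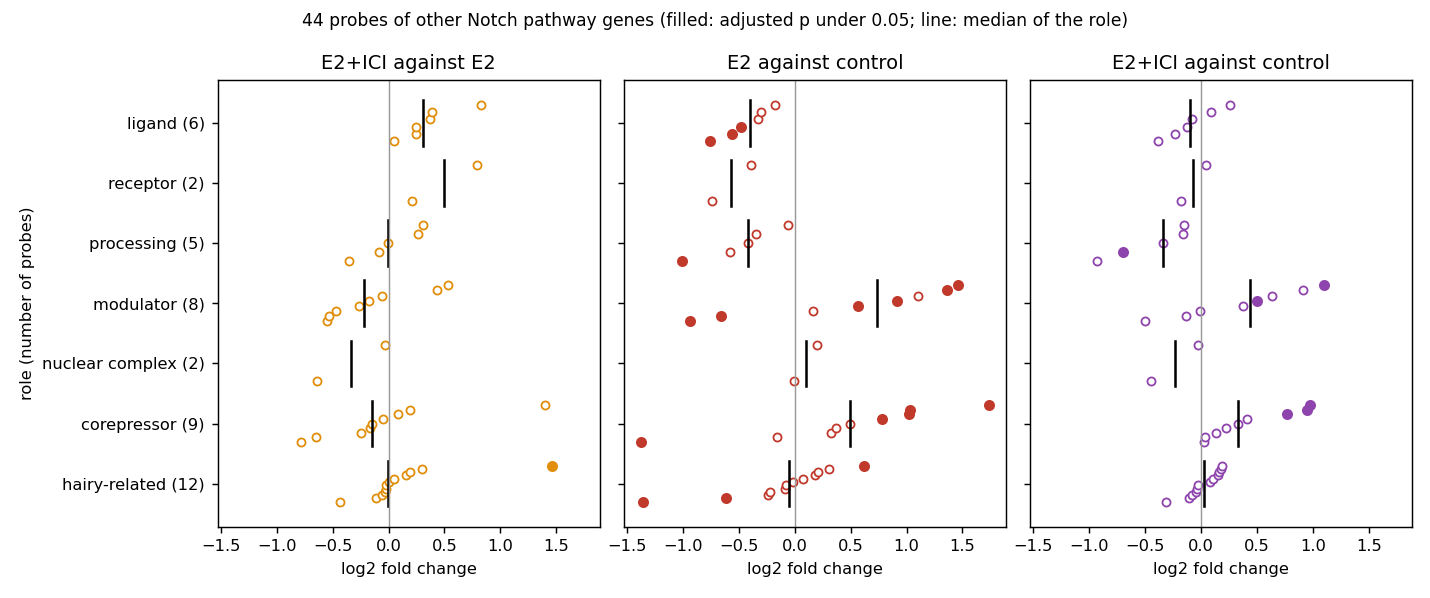
Log2 fold change (horizontal axes) of the 44 probes of other Notch pathway genes by role, for E2+ICI against E2, E2 against control and E2+ICI against control, with filled circles where the adjusted p was under 0.05 and a line at the median of each role. In E2 against control, all 3 filled ligand probes lie below 0 and 4 of 5 filled corepressor probes lie above 0, and the only filled circle in E2+ICI against E2 is bhlhe40 at 1.46.

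Among 6 ligand probes, 3 fell in E2 and none rose, while 16.5% of all probes tested passed lower and 19.2% higher. The Delta ligand gene dlc had -0.14, 0.057 and -0.33 in E2+ICI, -0.48, -0.39 and -0.67 in E2 and 0.19, 0.23, 0.19 and 0.38 in control fish, and its log2 fold change for E2 was -0.76 (SE 0.15, limma adjusted p = 0.00194). The Delta ligand gene dla changed by -0.48 (adjusted p = 0.0298) and the Jagged ligand gene jag1b by -0.56 (adjusted p = 0.0495). The call of dla was lost without control replicate 1, E2 replicate 2 or E2 replicate 3 (adjusted p up to 0.110). It was also lost with only the 2 groups compared (adjusted p = 0.0532) and with a replicate block (-0.38, adjusted p = 0.0722). That of jag1b was lost in 11 of 20 alternatives, among them each of 8 single arrays left out, namely control replicates 1, 2 and 3, all 3 E2 replicates and E2+ICI replicates 1 and 3 (adjusted p up to 0.142). The other Jagged1 gene, jag1a, stood at -0.33 (adjusted p = 0.165). No ligand probe passed in a comparison with E2+ICI.

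The other 2 receptor genes did not pass in any comparison. The probe of notch3 had -0.024, 0.0069 and -0.30 in E2+ICI, -0.87, -1.01 and -0.81 in E2 and 0.26, 0.54, -0.26 and -1.14 in control fish. All 3 E2 fish were below 3 of the control fish, and control replicate 4 was below them all, as for notch2 (Y10354). Its log2 fold change for E2 was -0.74 (SE 0.32, adjusted p = 0.0934), and notch1b stood at -0.39 (SE 0.24, adjusted p = 0.239).

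Of 5 probes for genes with a part in the cutting of Notch, only adam10a, a sheddase gene, passed. Its values were 0.041, -0.66 and -0.16 in E2+ICI, -0.84, -0.41 and -0.44 in E2 and 0.30, 0.24, 0.68 and 0.55 in control fish. Both treated groups lay below the control fish, with log2 fold changes of -1.01 for E2 (SE 0.20, adjusted p = 0.00251) and -0.70 for E2+ICI (SE 0.20, adjusted p = 0.0441). The second was lost in 12 of 20 alternatives, among them each of 7 single arrays left out, namely control replicates 1, 3 and 4, E2 replicates 2 and 3 and E2+ICI replicates 2 and 3 (adjusted p up to 0.133). The sheddase gene adam17a was at -0.58 in E2 and -0.93 in E2+ICI against control fish, with control replicate 2 missing (adjusted p = 0.138 and 0.0583). The sheddase gene adam10b (-0.42 for E2, adjusted p = 0.142) and the gamma-secretase gene psen2 (-0.34, adjusted p = 0.0985) did not pass. In the nuclear complex, rbpja, which encodes the DNA-binding partner of Notch, stood at 0.20 in E2 against control fish (adjusted p = 0.467) and at -0.64 in E2+ICI against E2 fish (adjusted p = 0.0931). The coactivator gene ep300b was at -0.0037 and -0.03 (adjusted p = 0.990 and 0.954).

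Of 8 probes for modulators, 6 passed for E2, 4 higher and 2 lower, against 35.6% of all probes tested. The gene pofut1, whose enzyme adds the fucose that Notch needs, had -0.23, -0.38 and -0.25 in E2+ICI, 0.33, 0.077 and 0.35 in E2 and -0.65, -0.60, -0.64 and -0.77 in control fish. The 3 groups did not overlap, and E2 fish were 0.91 above control fish (SE 0.13, limma adjusted p = 0.000336). The feedback inhibitor gene nrarpa, itself a Notch target, had 0.12, 0.19 and 0.13 in E2+ICI, -0.32, -0.13 and -0.41 in E2 and 0.59, 0.55, 0.52 and 0.96 in control fish. It fell by 0.94 in E2 (SE 0.15, adjusted p = 0.000649), and E2+ICI fish stood -0.51 from control fish (adjusted p = 0.0510). Both probes of dtx3, a Deltex gene, rose in E2, by 1.46 (AW154466, adjusted p = 0.00276) and 1.36 (BM096220, adjusted p = 0.00216). The values of BM096220 ran from -0.16 to 0.0061 in E2+ICI, from 0.033 to 0.30 in E2 and from -1.94 to -0.53 in control fish. In E2+ICI against control fish, BM096220 rose by 1.10 (adjusted p = 0.0201) and AW154466 stood at 0.91 (adjusted p = 0.0713). The call of BM096220 was lost without E2+ICI replicate 1 or 3 (adjusted p = 0.0768 and 0.0833), with only the 2 groups compared (adjusted p = 0.0611) and before Lowess (1.35, adjusted p = 0.128). The other 2 that passed for E2 are Fringe genes, whose enzymes extend that fucose, and were named after their values were seen. They are lfng at -0.66 (adjusted p = 0.0126), which did not pass without E2 replicate 1 or 3 (adjusted p = 0.0513 and 0.0512), and rfng at 0.56 (adjusted p = 0.00969), which did not pass with quantile normalization (0.41, adjusted p = 0.0501) or before Lowess (0.56, adjusted p = 0.0655). With quantile normalization lfng read -1.28.

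Of 9 corepressor probes, 5 passed for E2, against 35.6% of all probes tested. The Groucho gene tle2a had -0.14, -1.10 and -0.22 in E2+ICI, 0.31, 0.30 and 0.29 in E2 and -1.66, -1.61, -1.54 and -0.93 in control fish. It rose by 1.74 in E2 (SE 0.25, limma adjusted p = 0.000307) and by 0.95 in E2+ICI (SE 0.25, adjusted p = 0.0295), against control fish. The Groucho genes tle3a and tle3b (AB040707) rose by 1.03 and 1.02 in E2 (adjusted p = 0.00809 and 0.00217) and by 0.98 and 0.77 in E2+ICI (adjusted p = 0.0275 and 0.0276), but the E2 call of tle3a was lost before Lowess (1.24, adjusted p = 0.0643). The values of tle3b (AB040707) ran from -0.31 to 0.0089 in E2+ICI, from -0.038 to 0.21 in E2 and from -1.45 to -0.66 in control fish. The second tle3b probe, AW059173, was at 0.37 for E2 (adjusted p = 0.0863). The Sin3 scaffold gene sin3ab rose by 0.78 in E2 (adjusted p = 0.00334), with 1 E2+ICI value missing. The C-terminal binding protein gene ctbp1, named after its values were seen, fell by 1.37 (adjusted p = 0.0262), and the call was lost without control replicate 2 or without any 1 of the E2 arrays (adjusted p up to 0.0774) and with only the 2 groups compared (adjusted p = 0.0538), while quantile normalization gave -2.22. All 3 corepressor calls for E2+ICI, and that of the modulator rfng (0.50, adjusted p = 0.0414), were lost without E2+ICI replicate 1 or 3 (adjusted p from 0.0804 to 0.178). That of tle3a was also lost without control replicate 2 or E2+ICI replicate 2, that of tle2a without control replicate 1, 2 or 3, and that of rfng without control replicate 1 or 3 or any 1 of the E2 arrays (adjusted p from 0.0520 to 0.0917). With only the 2 groups compared, all 4 of these E2+ICI calls were lost (adjusted p from 0.0681 to 0.0922). With quantile normalization tle2a read 0.45, tle3b 0.49 and rfng 0.35 (adjusted p = 0.308, 0.0786 and 0.191), and with arrays scaled to equal spread 0.54, 0.47 and 0.33 (adjusted p = 0.187, 0.0729 and 0.197). Before Lowess the E2+ICI calls of tle3a, tle3b and rfng were lost as well (adjusted p from 0.150 to 0.184). With array medians then set to 0 they were lost too (adjusted p from 0.0606 to 0.0834).

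Of 12 other Hairy-related probes, 3 passed for E2, against 35.6% of all probes tested, and the 8 her probes among the 12 did not. The gene bhlhe40, a repressor of the related Dec family known for its part in the circadian clock, had 0.37, 0.40 and 0.38 in E2+ICI, -1.11, -1.05 and -1.08 in E2 and 0.25, 0.27, 0.14 and 0.44 in control fish. The E2 fish stood far below both other groups, which overlapped. The log2 fold change was -1.35 for E2 against control (SE 0.13, limma adjusted p = 1.72e-05), 1.46 between E2+ICI and E2 fish (SE 0.14, adjusted p = 0.000568) and 0.11 for E2+ICI against control (adjusted p = 0.642). Both passing differences passed in all 20 alternatives. The repressor genes hey2 and heyl of the Hey family moved apart in E2, hey2 by 0.62 (SE 0.16, adjusted p = 0.0103) and heyl by -0.62 (SE 0.19, adjusted p = 0.0234). That of hey2 was lost without E2 replicate 1 (adjusted p = 0.0556) and before Lowess (0.65, adjusted p = 0.0783), and that of heyl without control replicate 2, E2 replicate 1 or E2 replicate 3 (adjusted p from 0.0608 to 0.104). The call of heyl was also lost with quantile normalization (-0.42, adjusted p = 0.0995), with arrays scaled to equal spread (-0.40, adjusted p = 0.0950) and before Lowess with array medians set to 0 (-0.62, adjusted p = 0.0521). Of the her genes, her7, a somite clock gene, came nearest to passing at 0.30 (adjusted p = 0.117). Thus her6 and her9, both lower in E2 fish, were set among 12 relatives of which 1 rose, 2 fell and 9 did not pass.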

How the data were processed

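RNA of individual whole male fish was labelled with Cy3 and hybridised with a common Cy5-labelled reference RNA to an oligonucleotide array of 16416 probes. The authors subtracted the local background from GenePix signals, normalized each array by Lowess, selected arrays by scatter plot and deposited log2 ratios. The methods of the study give 4 replicates for each treatment, and 4 control, 3 E2 and 3 E2+ICI arrays stand in its normalized data. The part of this selection in the spread within the groups was not tested. A second deposited table holds log2 ratios of the same spots before Lowess, with 192 text entries that were read as missing. Versions of GenePix and Lowess are not given in the sources used here. The authors tested with SAM, which was not run. No intensities were used here, and precision rests on how many arrays a group has. Each array holds RNA from 1 fish, and no source used here says whether fish of a group shared a tank, so that p-values measure the spread between these fish. Groups were taken from the labels, and 0 columns of per-sample values were left unused.

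Probes were named by the GEO annotation of the array, in which 6088 probes have 1 symbol, 75 several and 10253 none, and the symbols can be old. A linear model with 3 group means was fitted to all 10 arrays together with limma (version 3.58.1, under R 4.3.3). The 3 groups shared 1 estimate of the spread of each probe. The model took in 16208 probes, after those with over 6 values missing or fewer than 2 values in a group had been left out. The residual degrees of freedom had a median of 7 and the moderation added 4.18. All p-values are two-sided and were adjusted by Benjamini-Hochberg across the 16208 probes, and those under 0.05 after adjustment are said to have passed. Probes of 1 gene were compared by an exact two-sided permutation test of their difference on each array. The fit and the permutation test were tested on simulated data. Python 3.11.15 with numpy 2.4.6, pandas 2.3.3, scipy 1.17.1 and matplotlib 3.10.9 did the rest.

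The members, the pathway and marker lists and the tests were chosen with earlier results of these data known. Named were every probe of the 4 genes, the 4 pathway probes per role with the smallest adjusted p in any comparison, and for each of the 7 probes the 3 with the highest Pearson r. Alternatives were values before Lowess, quantile normalization, arrays scaled to equal spread, array weights, complete probes only, no filter on missing values, the most repeated value of each array set to missing, only the 2 groups compared, a replicate block and leaving out each array. Values before Lowess with array medians set to 0, and the correlations and differences of same-gene probes without control replicate 4, were added after the data had been seen.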

Additional observations from a re-analysis of the deposited data

Results flagged for a closer look

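In the 4 control fish, control replicate 4 stood far from the other 3 for 3 of the 25 probes checked by Dixon's ratio of gap to range, at its 95% critical value for 4 samples. The notch1a probe BI887861 read 0.96 there and 0.147 to 0.167 in the others, nrarpa (AI942987) read 0.957 there and 0.515 to 0.585 in the others, and tle3b (AB040707) read -1.45 there and -0.768 to -0.665 in the others. All 3 came from the same array. The probes checked were the 7 and the pathway probes that passed in a comparison, all on the same 4 control arrays. Chance alone marks about 1 group in 20 by this rule, which sets no expected count for probes chosen so and sharing arrays. Before Lowess, BI887861 stood less far apart, at 0.451 on control replicate 4 and 0.255, -0.023 and 0.257 on control replicates 1, 2 and 3. The rule was not applied to values before Lowess. The array also had the widest spread of log2 ratios over all probes, 1.07 against 0.796 to 0.904 on the other control arrays, and its part in these values was not tested. The ratio for notch2 (Y10354), where the same array read -1.34, was below the critical value.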

How the results depend on the processing

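The changes of her9, notch2 (U57974) and notch1a (AI588403) between E2 and control fish passed in all 20 alternatives, and that of her6 in 17, failing when an E2 array was left out. For E2+ICI against control fish, the count of all probes that passed (1939) was 1026 with quantile normalization, 1074 with arrays scaled to equal spread, 1078 before Lowess, 3631 with array weights and 1213 with only the 2 groups compared, and from 897 to 2444 when an array was left out. The 7 probes had 2 with array weights and from 0 to 1 with an array left out, instead of 0. Of the pathway probes (6), 2 passed with quantile normalization, 2 with equal spread, 2 before Lowess, 3 before Lowess with array medians set to 0, 10 with array weights, 0 with only the 2 groups compared and from 0 to 5 with an array left out.

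For E2+ICI against E2 fish, the count of all probes (879) was 3930 with quantile normalization, 3833 with equal spread, 3846 with array weights, 3314 with only the 2 groups compared, 163 before Lowess, 386 before Lowess with medians set to 0 and from 162 to 2696 with an array left out. Of the 7 probes (1), 4 passed with quantile normalization, 4 with equal spread, 4 with array weights, 4 with only the 2 groups compared, 0 before Lowess, 0 before Lowess with medians set to 0 and from 0 to 3 with an array left out. Of the pathway probes (1), 11 passed with quantile normalization, 11 with equal spread, 10 with array weights, 9 with only the 2 groups compared, 3 with complete probes only and from 1 to 9 with an array left out. Control arrays enter this comparison through the spread that the 3 groups share, and not through the fold changes. What moved the counts in the other alternatives was not tested. Between E2 and control fish no alternative moved these counts by over 1.5 times, and leaving out an array gave 3 to 5 of the 7 probes, 13 to 20 pathway probes and 4237 to 7135 of all probes.

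Same-numbered samples did not deviate together (r from -0.23 to 0.18 over 9 pairs, 1 of them over 0.1), and the numbers were used only to name the samples. Differently numbered samples of different groups had r from -0.28 to 0.33 over 24 pairs, 9 of them over 0.1. The highest was between control replicate 4 and E2 replicate 1, and its cause was not tested. With the replicate number as a replicate block, 2 of the 7 probes, 8 pathway probes and 2090 of all probes passed between E2+ICI and E2 fish, and her6 read 0.0833 between E2+ICI and control fish. Only the control group has a replicate 4, so that the block takes up that array. Its fold changes for the 7 probes are those found without control replicate 4, where her6 also read 0.0833.

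Of the values for the 7 probes, those near 0 alone turned their sign. With an array left out, notch2 (Y10354) ran from -0.43 to 0.0195 for E2 against control, from -0.40 to 0.0472 for E2+ICI against control and from -0.0582 to 0.12 for E2+ICI against E2. For E2+ICI against control it was 0.0505 before Lowess and 0.0713 with medians set to 0, and her6 ran from -0.18 to 0.0833 with an array left out. For E2+ICI against E2, notch1a X69088 ran from -0.11 to 0.27 and BI887861 from -0.0792 to 0.26. Before Lowess, the median of all probes was -0.31 for E2 against control, instead of -0.07, and 0.20 for E2+ICI against E2, instead of 0.03. The changes of her9 (-1.28), notch2 U57974 (-1.16), her6 (-0.97) and notch1a AI588403 (1.13) between E2 and control fish went beyond that shift. Of the probes that passed between E2 and control fish, 53.8% were higher, and 39.6% before Lowess. The share was 74.6% for E2+ICI against control fish, and 53.8% with quantile normalization. It was 53.1% for E2+ICI against E2 fish, and 37.6% before Lowess with medians set to 0. With 3 or 4 arrays a group, the number of arrays limits what can be called, and spot signals over background were not used here.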
